A study of Mus musculus with 6 samples.

Results

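Transcripts of Kit and of 9 transcription factors of the mast cell lineage were followed in mast cells sorted from fetal mouse skin. The 10 genes were taken by symbol (Kit, Mitf, Tfe3, Gata1, Gata2, Tal1, Lmo2, Runx1, Spi1 and Cebpa) from the 55809 gene rows of the count tables, and all 10 passed the filter on low counts, with 16716 genes in total. The cells came from C57BL6J fetuses of both sexes at embryonic day 18.5 and were sorted as CD45+ F4/80- CD64- CD117+ ST2+, where CD117 is the protein of Kit itself and ST2 is the receptor of interleukin 33. All dams were 8 to 10 weeks old. Control offspring (CT) came from dams that were left alone. Prenatal stress offspring (PS) came from dams held in tubes under a bright lamp for 30 minutes at a time, 3 times a day, from embryonic day 13.5 to 18.5 by the design text and from day 13 to 18 by the treatment protocol. Each group had 3 libraries, each a pool of 4 fetal mice (12 mice per group). The number of litters behind a pool is not given in the labels, so the p-values measure the spread between pools. Since Kit protein was one of the sort criteria, cells with little of it on their surface were not sampled, and the data bear on Kit RNA within the gate only.

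KIT is the receptor tyrosine kinase for stem cell factor, on which mast cells depend for survival and growth, and mice that lack its function have almost no mast cells. MITF, a basic helix-loop-helix leucine zipper factor, and GATA2, a zinc finger factor, drive Kit and the granule protease genes, and TFE3 is a close relative of MITF. GATA1 acts in maturation, TAL1 binds E-box DNA and works with GATA factors through the bridging protein LMO2, and RUNX1, PU.1 (the product of Spi1) and C/EBP alpha (the product of Cebpa) act in several blood lineages, including macrophages and granulocytes.

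The letters around the transcript starts are shown for 5 of these genes, those with an unadjusted edgeR p under 0.05 in the comparison below. Kit, Gata2 and Tal1 had one profile over the 6 libraries and Runx1 and Cebpa the opposite one. Tfe3 and Lmo2, not printed, were also opposite to Kit (Pearson r = -0.918 and -0.910, beside -0.908 for Cebpa). Mitf and Gata1, not printed either, went with Kit (r = 0.889 and 0.858), and Spi1 was at -0.723. RefSeq windows of 300 bases on build GRCm38.p6, from 250 bases before a transcript start to 50 after it, were matched by symbol for 8 of the 10 genes, with 15 windows in all. No window was found for Lmo2 or Spi1. Capitals mark every match, on either strand, to the letters of 7 binding motifs. The E-box, bound by TAL1, MITF and TFE3, was searched as CANNTG. Its special forms for MITF and TFE3, which overlap with it, were searched as CATGTG, the form named M-box, and as CACGTG. For GATA factors the letters AGATAA were used. The RUNX motif was written as TGTGGT, the PU.1 motif was taken to be GAGGAAGT, and for C/EBP factors the palindrome TTGCGCAA was searched.
Kit, first start, chr5:75574737-75575036, plus strand: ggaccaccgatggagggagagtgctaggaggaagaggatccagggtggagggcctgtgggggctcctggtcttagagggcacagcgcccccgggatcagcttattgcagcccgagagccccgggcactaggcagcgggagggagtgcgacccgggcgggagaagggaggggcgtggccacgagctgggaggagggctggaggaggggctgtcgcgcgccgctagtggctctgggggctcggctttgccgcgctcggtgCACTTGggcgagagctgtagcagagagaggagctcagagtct
Gata2, second start, chr6:88198414-88198713, plus strand: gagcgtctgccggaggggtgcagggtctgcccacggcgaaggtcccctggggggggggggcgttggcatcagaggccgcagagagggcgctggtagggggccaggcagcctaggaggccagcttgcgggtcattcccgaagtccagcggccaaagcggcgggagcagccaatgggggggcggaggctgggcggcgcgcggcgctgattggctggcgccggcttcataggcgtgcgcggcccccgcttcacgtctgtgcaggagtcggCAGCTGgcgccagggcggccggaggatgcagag
Tal1, first start, chr4:115056176-115056475, plus strand: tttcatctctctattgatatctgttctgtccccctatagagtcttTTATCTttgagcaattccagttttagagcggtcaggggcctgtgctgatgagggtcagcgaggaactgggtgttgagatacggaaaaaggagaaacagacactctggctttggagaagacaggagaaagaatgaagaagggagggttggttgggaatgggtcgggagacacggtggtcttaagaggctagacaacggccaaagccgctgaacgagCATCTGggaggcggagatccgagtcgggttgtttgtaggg
Runx1, first start, chr16:92826025-92826324, minus strand: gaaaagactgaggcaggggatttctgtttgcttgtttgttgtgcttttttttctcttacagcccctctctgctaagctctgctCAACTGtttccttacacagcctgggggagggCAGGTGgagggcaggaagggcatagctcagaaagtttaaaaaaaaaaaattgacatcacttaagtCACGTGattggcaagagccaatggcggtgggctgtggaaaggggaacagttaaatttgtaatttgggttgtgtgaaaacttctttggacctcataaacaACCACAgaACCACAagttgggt
Cebpa, chr7:35119043-35119342, plus strand: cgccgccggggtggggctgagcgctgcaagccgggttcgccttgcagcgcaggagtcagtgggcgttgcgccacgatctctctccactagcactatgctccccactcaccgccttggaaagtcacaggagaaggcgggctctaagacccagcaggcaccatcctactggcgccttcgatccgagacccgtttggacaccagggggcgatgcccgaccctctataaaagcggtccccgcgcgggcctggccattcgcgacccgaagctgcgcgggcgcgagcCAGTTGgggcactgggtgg

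The Kit window held 1 E-box, at position 259 from its 5′ end, and no match to the other letters searched, and its second annotated start lies 4 bases further on. In Gata2 the window of the second start held 1 E-box, at position 268, and that of the first start held none of the letters. For Tal1 the first start had 1 AGATAA match, read as TTATCT at position 46, and 1 E-box at position 261. Of the windows printed, that of Runx1 had the most matches: 3 E-boxes, of which the one at position 180 is CACGTG, and 2 copies of TGTGGT, read as ACCACA at positions 279 and 287. The second starts of Tal1 and Runx1 held none of the letters. Cebpa had 1 E-box at position 282. Positions above 250 lie at or after the transcript start, as do all matches in the printed windows of Kit, Gata2 and Cebpa. Over all 15 windows of these genes, AGATAA was found in 1, CACGTG in 1, TGTGGT in 3 and CANNTG in 9, and CATGTG, GAGGAAGT and TTGCGCAA were found in none. Of 32851 promoter windows of the same length, 11.2% held AGATAA, 7.15% CACGTG, 16.8% TGTGGT, 72.3% CANNTG, 14.2% CATGTG, 3.20% GAGGAAGT and 0.183% TTGCGCAA. A match is a description of letters in this window.

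The libraries held 51710555 to 74735139 counts assigned to genes, of which Kit took 96152 to 147695 and Cebpa, the lowest of the 10, 668 to 1441. Defining markers of the labelled cell type were abundant: 8 mast cell genes (Cpa3, Cma1, Tpsb2, Mcpt4, Hdc, Ms4a2, Il1rl1 and Fcer1g) summed to 56310 to 68045 CPM in the controls and 82187 to 99093 CPM in the stress libraries (CPM, counts scaled to a common library size after TMM normalization). Of these markers, Il1rl1 encodes ST2, a sort criterion, so its presence was set by the gate. Stress replicate 3 stood apart within its group. The 18 macrophage and monocyte markers, cells the sort was meant to leave out, summed to 7349 to 8374 CPM in the controls, to 6065 and 5656 CPM in stress replicates 1 and 2, and to 8643 CPM in stress replicate 3. None of these 18 genes was at 0 in the data, 1 rose (Cd68) and 1 fell (Cx3cr1), beside 4.34% and 1.85% of all genes. The 3 most abundant were Mrc1 (2295 ± 120 CPM for control and 1943 ± 695 for stress), Csf1r (1215 ± 88.4 and 866 ± 247) and Lyz2 (1035 ± 97.1 and 1005 ± 145; SD, n = 3). In bulk RNA, fewer cells of a type and less RNA per cell cannot be told apart.

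Prenatal stress against control gave no call among the 10 genes. With edgeR (quasi-likelihood F, Benjamini-Hochberg adjusted over all genes, threshold 0.05) 0 of 10 passed in either direction, where 6.19% of all genes tested passed, 4.34% higher and 1.85% lower. At an unadjusted p under 0.05 there were 5 of the 10 (Kit, Gata2, Tal1, Runx1 and Cebpa), beside 24.8% of all genes. DESeq2 called 1 of the 10, Cebpa, where it called 11.9% of all genes, and limma-voom called 0 of the 10, where it called 5.96%. The 5 genes Kit, Mitf, Gata1, Gata2 and Tal1 had positive fold changes and the other 5 negative ones, with a median over the 10 of -0.014 on the log2 scale against -0.0039 over all genes. The 2 groups overlapped in 9 of the 10 genes. In Cebpa all stress values lay below all controls, as they did in 14.5% of all genes, and in none of the 10 did they lie above, as they did in 16.0%. The plot of the 10 genes by library shows how stress replicate 3 lies among the controls in 9 of them.

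**Figure D1:**
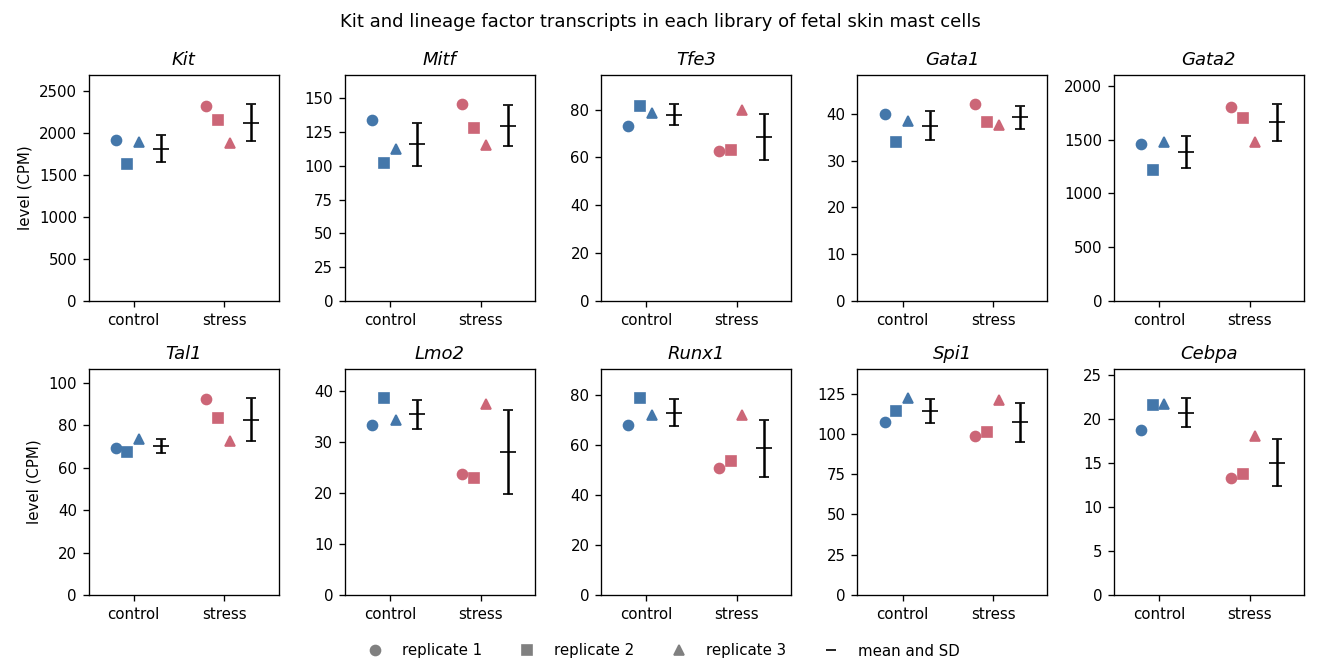
Level (CPM) of each of the 10 genes in the 3 control and 3 prenatal stress libraries, one symbol per replicate number, with the group mean and SD (n = 3) as a bar. In Lmo2, stress replicates 1 and 2 are at 23.7 and 23.0 CPM while stress replicate 3, at 37.5 CPM, is within the controls.

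Kit, the receptor gene, had the highest counts of the 10. Control replicates 1, 2 and 3 had 1924, 1635 and 1894 CPM of it, and stress replicates 1, 2 and 3 had 2325, 2164 and 1890 CPM. Stress replicates 1 and 2 were above every control, and stress replicate 3 was level with control replicate 3. The group means were 1818 ± 158 and 2126 ± 220 CPM (SD, n = 3), a log2 fold change of 0.23 ± 0.10 (SE; 95% interval 0.0089 to 0.44; edgeR adjusted p = 0.187). As a percentage the interval runs from 0.618% to 36.0% higher. Intervals here and below are for single genes, with no adjustment for the number of genes tested. The unadjusted edgeR p for Kit was 0.129 without control replicate 2, 0.152 without stress replicate 1 and 0.209 with library totals alone. Mast cell markers were higher in all 3 stress libraries than in all 3 controls for each of the 8 genes of that list, as they were for 16.0% of all genes. Of the 8, 5 rose (Mcpt4, Ms4a2, Cpa3, Il1rl1 and Cma1), beside 4.34% of all genes. Their part in the value of Kit was not tested.

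MITF and TFE3 belong to one family and bind related E-boxes. For Mitf, control replicates 1, 2 and 3 had 134, 102 and 112 CPM and stress replicates 1, 2 and 3 had 146, 128 and 115 CPM. Control replicate 1 lay above stress replicates 2 and 3, and the log2 fold change of 0.16 ± 0.11 (95% interval -0.094 to 0.41; edgeR adjusted p = 0.411) did not pass. Tfe3 was at 73.0, 81.7 and 78.7 CPM in the controls and at 62.7, 63.1 and 79.9 CPM in stress replicates 1, 2 and 3. Stress replicates 1 and 2 were below every control, and stress replicate 3 was among them (log2 fold change -0.18 ± 0.10, 95% interval -0.40 to 0.038, edgeR adjusted p = 0.2804). Pigment cells of the skin also carry KIT and MITF, but lack CD45, so the gate was meant to leave them out. Of 10 melanocyte markers, 8 were tested and 6 rose, beside 4.34% of all genes. With the mean macrophage marker level as a covariate 2 rose. None of the 10 was at 0, and their sum was 15.2 to 21.4 CPM in the controls and 31.0 to 76.3 CPM after stress. The highest were Dct (8.01 ± 2.08 CPM in the controls and 23.8 ± 11.5 after stress) and Pmel (5.40 ± 1.09 and 14.6 ± 6.49). The part of such transcripts in the values of Kit and Mitf was not tested.

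Among the GATA factors and their partners, Gata2 was far above the rest. Control replicates 1, 2 and 3 had 1461, 1215 and 1481 CPM of Gata2, and stress replicates 1, 2 and 3 had 1805, 1704 and 1475 CPM. As with Kit, stress replicates 1 and 2 were above every control and stress replicate 3 was not (log2 fold change 0.26 ± 0.10, 95% interval 0.031 to 0.49, edgeR adjusted p = 0.155). Gata1 was at 39.9, 34.0 and 38.5 CPM in the controls and at 42.1, 38.2 and 37.5 CPM in the stress libraries, the smallest difference of the 10 (log2 fold change 0.07 ± 0.08, 95% interval -0.11 to 0.24, edgeR adjusted p = 0.629). Its sign depends on the scaling: with library totals alone in place of TMM factors it was at -0.045, in a setting that moves the median of all genes to -0.12 and the share of calls that are higher from 70.0% to 26.5%. The other 9 genes kept their sign in that setting but moved with the median: Kit was at 0.11, Gata2 at 0.15, Tal1 at 0.12, Mitf at 0.047, Tfe3 at -0.30 and Spi1 at -0.21, with none of these 6 called.

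Tal1, the E-box factor, was at 69.4, 67.6 and 73.7 CPM in the controls and at 92.5, 83.3 and 72.5 CPM in stress replicates 1, 2 and 3. Control replicate 3 was above stress replicate 3, and the other stress libraries were above all controls (log2 fold change 0.24 ± 0.09, 95% interval 0.040 to 0.43, edgeR adjusted p = 0.136). Lmo2, which encodes the bridging protein between TAL1 and GATA factors, ran the other way in the same libraries. Lmo2 was at 33.4, 38.6 and 34.4 CPM in the controls and at 23.7, 23.0 and 37.5 CPM in stress replicates 1, 2 and 3. With one stress library among the controls, its stress group had the widest spread of the 10 genes (coefficient of variation 29.1% against 7.89% in the controls), and the log2 fold change was -0.34 ± 0.17 (95% interval -0.72 to 0.051, edgeR adjusted p = 0.259).

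Runx1, Spi1 and Cebpa are shared with other myeloid cells. Runx1 stood at 68.0, 78.8 and 72.1 CPM in the 3 controls, and at 50.7, 53.7 and 71.9 CPM in stress replicates 1, 2 and 3. Only stress replicate 3 overlapped the controls (log2 fold change -0.31 ± 0.12, 95% interval -0.59 to -0.030, edgeR adjusted p = 0.163). Without a filter on low counts Runx1 was called (-0.32, edgeR adjusted p = 0.0348), in a fit where 6.6% of all genes passed. Spi1 was at 107, 114 and 122 CPM in the controls and at 98.6, 101 and 121 CPM in the stress libraries (log2 fold change -0.096 ± 0.087, 95% interval -0.29 to 0.10, edgeR adjusted p = 0.537). Cebpa was at 18.8, 21.6 and 21.6 CPM in the controls and at 13.2, 13.7 and 18.0 CPM in stress replicates 1, 2 and 3. Even stress replicate 3 was below the lowest control here, and the log2 fold change of -0.46 ± 0.12 (95% interval -0.74 to -0.18) had an edgeR adjusted p of 0.0594. The call of Cebpa turned on the fit: it passed with DESeq2 (adjusted p = 0.00741), without a filter (edgeR, 0.00361), and with library totals alone (edgeR, 0.0285), where 12.5% of all genes passed.

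Cebpa, Runx1, Lmo2, Tfe3 and Spi1 were low in stress replicates 1 and 2, the libraries with the lowest macrophage sum. Not every marker of that list followed the sum: Cd68 was at 148 to 160 CPM in the controls and at 214, 173 and 214 CPM after stress, and Lyz2 was highest in stress replicate 2, at 1168 CPM. In stress replicate 3 the sum was above the controls and Cebpa was below them. The mean log2 CPM of the list in that library, 7.848, was level with control replicates 2 and 3 (7.845 and 7.848). Of its single markers there, Mrc1 (2729 CPM) was above every control and Cx3cr1 (310 CPM) was below every control. The part of macrophage transcripts in the values of these 5 genes was not tested. With the mean log2 level of the macrophage list as a covariate in the edgeR fit, the log2 fold changes were -0.26 for Cebpa (adjusted p = 0.118), -0.11 for Runx1 (0.483), -0.055 for Lmo2 (0.776), -0.019 for Tfe3 (0.906) and 0.041 for Spi1 (0.788). In the same fit they were 0.10 for Kit (adjusted p = 0.612), 0.14 for Gata2 (0.513), 0.13 for Tal1 (0.451), 0.011 for Mitf (0.968) and 0.012 for Gata1 (0.957), with 0 of 10 called. The covariate was computed from the same libraries, and what it removes was not tested.

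**Figure D2:**
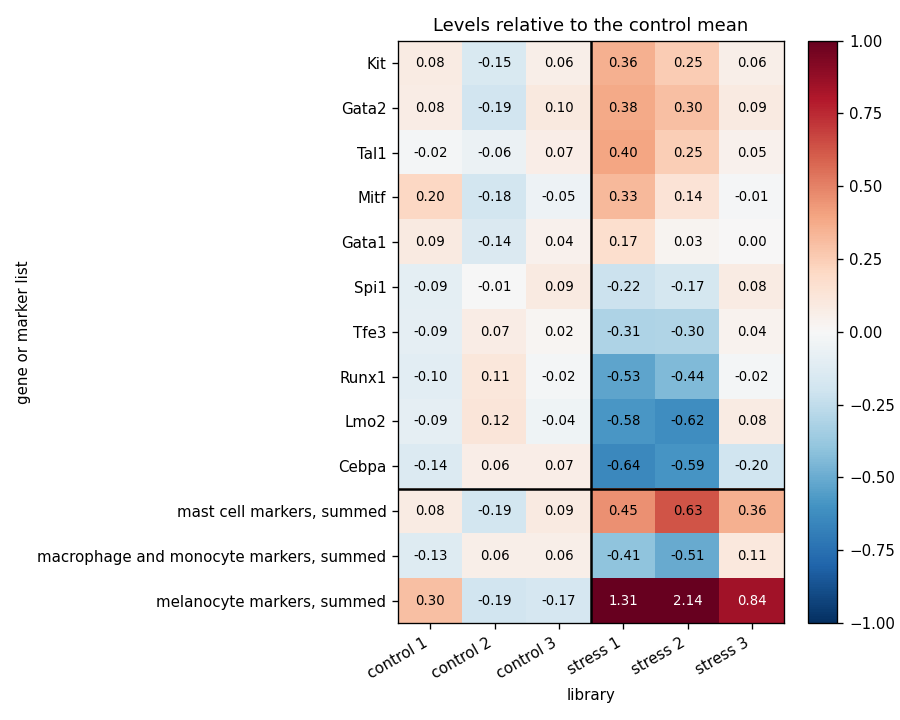
Each cell gives the log2 ratio of the CPM in 1 library to the mean of the 3 controls, for the 10 genes (above the line) and for the summed mast cell, macrophage and melanocyte markers (below it), with libraries as columns. In stress replicate 3 the macrophage sum is at 0.11 and Lmo2 at 0.08, while in stress replicates 1 and 2 they are at -0.41 and -0.51 and at -0.58 and -0.62.

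Leaving out stress replicate 3 changed the count more than any other library did. Without it, 7 of the 10 genes passed by edgeR, 3 higher and 4 lower, where 15.4% of all genes passed, 7.76% higher and 7.69% lower. The 3 higher were Kit (log2 fold change 0.30, adjusted p = 0.0457), Gata2 (0.34, 0.0387) and Tal1 (0.32, 0.0109). The 4 lower were Lmo2 (-0.61, adjusted p = 0.00189), Cebpa (-0.62, 0.00231), Runx1 (-0.49, 0.00296) and Tfe3 (-0.31, 0.0113). Mitf (0.23, 0.171), Gata1 (0.095, 0.477) and Spi1 (-0.20, 0.0735) did not pass. With each of the other 5 libraries left out in turn, 0 of 10 passed. A fit with stress replicate 3 as the only stress library, added once the values were known, gave 0 calls among the 10, where 0.954% of all genes passed, and log2 fold changes from -0.20 for Cebpa to 0.085 for Gata2. With 1 stress library, that fit assumes that it varies as the controls do.

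**Figure D3:**
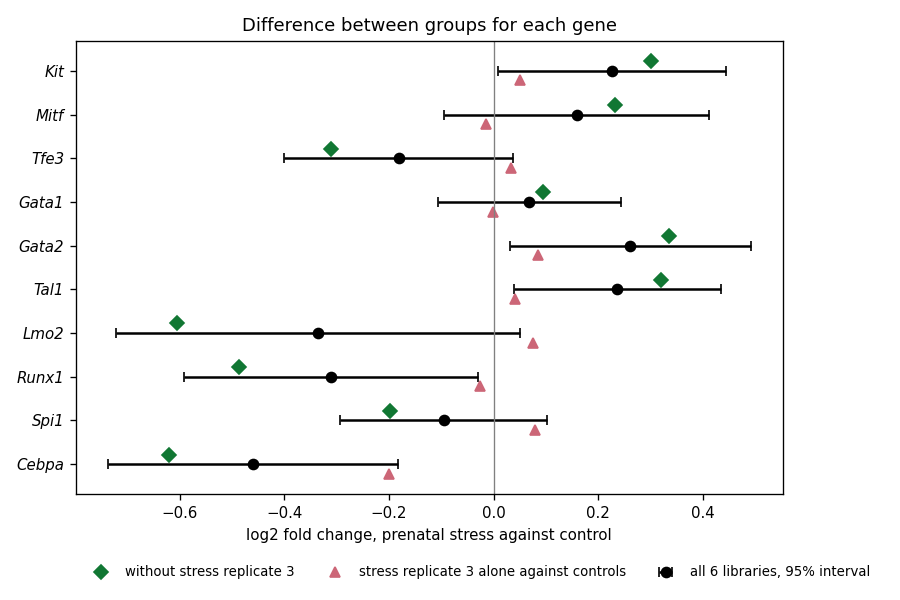
Log2 fold change of prenatal stress against control for the 10 genes, with all 6 libraries and the 95% interval (black), without stress replicate 3 (green diamonds) and with stress replicate 3 as the only stress library (red triangles). The green points lie farther from 0 than the black ones in all 10 genes, from 0.34 for Gata2 to -0.62 for Cebpa.

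Ratios of 2 genes within a library do not depend on how libraries are scaled. For every 1000 Gata2 counts there were 27.3, 27.9 and 26.0 Gata1 counts in control replicates 1, 2 and 3 and 23.3, 22.4 and 25.5 in stress replicates 1, 2 and 3. The groups did not overlap, with a difference of -0.19 on the log2 scale (two-sided, by exact permutation: p = 0.1, which is the lowest value possible with 3 libraries per group, and 0.2 adjusted over the 4 ratios computed). Per 1000 Gata2 counts, Cebpa had 12.8, 17.8 and 14.6 counts in the controls, against 7.34, 8.04 and 12.2 after stress. This ratio did not overlap between groups either (difference -0.74, exact permutation p = 0.1, adjusted 0.2). Spi1 had 73.4, 93.9 and 82.4 counts per 1000 Gata2 counts in the controls and 54.6, 59.6 and 82.3 after stress, where stress replicate 3 was inside the control range (difference -0.36, exact permutation p = 0.2, adjusted 0.2). The ratio of Mitf to Tfe3 was 1.83, 1.25 and 1.42 in the controls and 2.32, 2.02 and 1.44 after stress, and again stress replicate 3 was among the controls (difference 0.35, exact permutation p = 0.2, adjusted 0.2).

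Levels were compared between genes per kilobase of annotated exon. On this scale Gata2 was the highest of the 10 in the controls, at 257 ± 27.5 CPM per kilobase (SD, n = 3), followed by Kit at 204 ± 17.8 and Spi1 at 42.5 ± 2.76. Each of these steps was larger than the sum of the 2 SDs. Mitf (18.7 ± 2.58), Lmo2 (16.4 ± 1.29), Tal1 (16.0 ± 0.724) and Gata1 (15.4 ± 1.27) came next, and neighbours among these 4 did not differ beyond their spread. Tfe3 (8.40 ± 0.478) and Cebpa (7.84 ± 0.623) did not differ beyond it either, and Runx1 was the lowest at 6.07 ± 0.453 CPM per kilobase. With the longest transcript as the length the first 5 places were the same, but Gata2 (388 ± 41.5) and Kit (347 ± 30.2) no longer differed by more than the sum of their SDs. On that scale Gata1 (19.7) came before Tal1 (16.7), and Runx1 (12.4) came before Tfe3 (12.3) and Cebpa (7.87).

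Relatives of the 10 genes differed widely in level. In the MITF family, Tfec was at 5.28 ± 0.646 CPM per kilobase in the controls and Tfeb at 1.26 ± 0.159, both below Mitf and Tfe3. Gata3, the GATA factor of T cells and type 2 lymphoid cells, was at 0.372 ± 0.123. Lyl1, the nearest relative of TAL1, was at 22.7 ± 1.01 and Lmo4 at 25.9 ± 0.952, both above Tal1 and Lmo2. Runx3, at 18.8 ± 1.30, was above Runx1, and Runx2 was at 3.13 ± 0.443. Cebpb, at 15.1 ± 2.18, was above Cebpa. Kitl, which encodes the KIT ligand stem cell factor, was at 0.884 ± 0.185 CPM per kilobase in these cells.

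**Figure D4:**
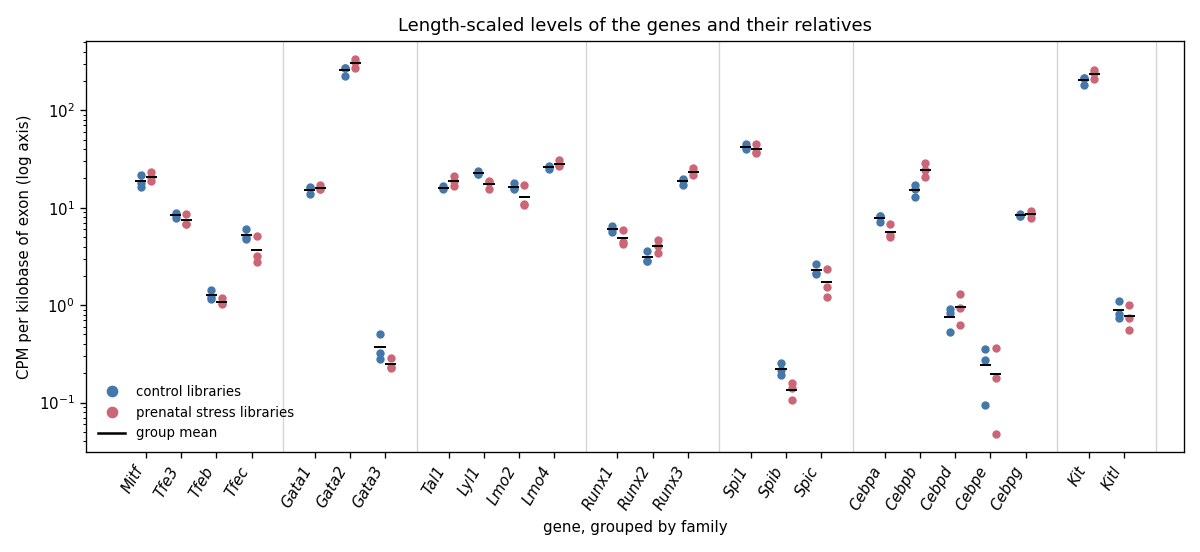
Length-scaled level (CPM per kilobase of exon, log axis) of the genes and their relatives, one point per library, with the mean of the 3 controls (left, blue points) and of the 3 stress libraries (right, red points) as lines. The control means of Gata2 and Kit are 257 and 204, with Kit at 184 in control replicate 2, while Gata3 is at 0.372 and Kitl at 0.884.

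Some relatives and partners passed where the 10 genes did not. Of 82 tested genes in the lists of family members, complex partners and other blood cell factors, 7 rose, 2 fell and 73 did not pass (11.0% passed, beside 6.19% of all genes; median log2 fold change -0.025). Runx3, a RUNX factor of lymphoid and mast cells, rose from 93.9 ± 6.51 to 118 ± 9.70 CPM (0.33 ± 0.08, edgeR adjusted p = 0.0443). Cebpb, a C/EBP factor induced in inflammation, rose from 22.8 ± 3.28 to 37.0 ± 6.07 CPM (0.70 ± 0.13, edgeR adjusted p = 0.0236), the opposite sign to Cebpa. Lyl1 fell from 40.9 ± 1.81 to 31.8 ± 3.20 CPM (-0.36 ± 0.08, edgeR adjusted p = 0.0368), the opposite sign to Tal1. Id2, an inhibitor of E-box factors, rose from 199 ± 3.31 to 230 ± 4.18 CPM (0.21 ± 0.05, edgeR adjusted p = 0.0476). These differences in sign between relatives were not tested. The ETS factor gene Erg rose by 0.45 ± 0.11 on the log2 scale (edgeR adjusted p = 0.0445), and the repressor genes Gfi1 (0.53 ± 0.10, 0.0240) and Bach2 (0.40 ± 0.09, 0.0423) rose too. Ywhab, a 14-3-3 protein gene whose family binds MITF, rose by 0.34 ± 0.08 (edgeR adjusted p = 0.0494).

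Over all genes, 4.34% rose and 1.85% fell. By list, 1 of 14 MITF family genes and regulators rose and none fell, and 1 of 19 GATA and TAL1 partners rose and 1 fell. In the RUNX list 1 of 5 rose and none fell, and in the ETS list 1 of 12 rose and none fell. In the C/EBP list, which holds Trib1 and Trib2 beside C/EBP genes, 1 of 8 rose and none fell. Among other blood cell factors 2 of 26 rose and 1 fell, Sox4 (16.6 ± 4.15 and 7.30 ± 0.178 CPM, edgeR adjusted p = 0.00912). The list medians lay between -0.066 and 0.057 on the log2 scale, beside -0.0039 for all genes. Abundant members that did not pass included Zeb2 (301 ± 8.42 and 306 ± 21.1 CPM), Ikzf1 (295 ± 13.9 and 292 ± 30.7), Elf1 (621 ± 52.8 and 721 ± 77.0), Cbfb, the binding partner of RUNX factors (131 ± 1.24 and 136 ± 3.20), Rcor1 (166 ± 16.4 and 193 ± 16.8), Ywhae (440 ± 5.24 and 433 ± 26.9), Trib1 (77.0 ± 3.37 and 73.8 ± 19.5) and Cebpz (66.1 ± 1.08 and 61.1 ± 2.10).

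Tcf4, an E-protein partner of TAL1, was at 57.3, 64.8 and 58.6 CPM in the controls and at 41.1, 36.3 and 52.5 CPM in the stress libraries, with an edgeR adjusted p of 0.0541. Tfec was at 27.0, 33.7 and 27.9 CPM in the controls and at 17.9, 15.6 and 28.4 CPM in stress replicates 1, 2 and 3 (edgeR adjusted p = 0.152). Both were lowest in the libraries with the lowest macrophage sum, and the part of macrophage transcripts in these values was not tested. Tcf4 and Tfec were named after their values were seen.

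Of 40 genes for the KIT ligand and KIT signalling, 3 rose, 1 fell and 36 did not pass, beside 6.19% of all genes that passed, and the median was -0.022. Among subunits of the lipid kinase PI3K, which acts downstream of KIT, Pik3r1 rose (0.45 ± 0.06, edgeR adjusted p = 0.00644) and Pik3cd fell (-0.31 ± 0.06, 0.0280). Gab2, an adaptor, rose by 0.66 ± 0.12 (edgeR adjusted p = 0.0187). Socs1, a feedback inhibitor of cytokine signals, rose from 1.08 ± 0.0634 to 1.81 ± 0.282 CPM (0.75 ± 0.18, edgeR adjusted p = 0.0496). Kitl itself was at 5.23 ± 1.10 and 4.54 ± 1.31 CPM (edgeR adjusted p = 0.621). The abundant members Inpp5d, a lipid phosphatase that opposes KIT signals (694 ± 59.2 and 852 ± 65.2 CPM, adjusted p = 0.0747), and Grb2, an adaptor (274 ± 16.6 and 278 ± 8.95, adjusted p = 0.848), did not pass.

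Mast cell genes described as needing MITF or GATA2 had calls where Mitf and Gata2 had none. The list holds every mast cell marker summed above except Fcer1g, so its calls and those of the markers are not separate observations. Like the other lists, it was chosen with earlier results of these data known, and its member Il1rl1 encodes the sort criterion ST2. Of 17 such genes 8 were called higher, 0 lower and 9 not, where 4.34% of all genes were called higher and 1.85% lower, and the median log2 fold change was 0.40. Fold changes were positive in 14 and negative in 3. The negative ones were Itga4 (-0.33, edgeR adjusted p = 0.0756), Tph1 (-0.14, 0.321) and Bcl2 (-0.093, 0.725), and all stress values of Itga4 lay below all controls. With the macrophage covariate 3 were called higher and 1 lower, with a median of 0.28, and with stress replicate 3 as the only stress library 2 were called higher and 0 lower. Fcer1a, the ligand-binding chain of the IgE receptor, rose from 5.76 ± 0.454 to 27.6 ± 11.2 CPM (2.26 ± 0.29, edgeR adjusted p = 0.00666). The chymase gene Mcpt4 (1.04 ± 0.15, edgeR adjusted p = 0.00946), the IgE receptor chain gene Ms4a2 (0.58 ± 0.10, 0.0152), the carboxypeptidase gene Cpa3 (0.55 ± 0.11, 0.0286) and the chymase gene Cma1 (0.40 ± 0.10, 0.0463) rose too. Whether this list differed from Mitf or Gata2 was not tested.

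Most of these calls depended on which libraries entered. Of the 21 genes called across the 8 lists, 4 passed in every fit that left out 1 library: Fcer1a, Mcpt4, Pik3r1 and Sox4. Runx3, Lyl1, Id2, Bach2, Ywhab, Socs1, Cpa3, Cma1, Il1rl1, Slc18a2 and Cadm1 each lost the call in 5 of the 6 such fits, with edgeR adjusted p-values up to 0.171, and kept it without stress replicate 3. Erg (up to 0.183), Gfi1 (0.116) and Pik3cd (0.0953) lost it in 4, Cebpb (0.0964) and Gab2 (0.0757) in 3, and Ms4a2 (0.0741) in 1, without control replicate 2.

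The genes with the most similar profile over the 6 libraries were looked up among genes with a mean of at least 50 CPM. For Kit they were Taok3 (Pearson r = 0.997), Ednra (0.996) and Itpr3 (0.995). Mitf was nearest to Kdm5b (r = 0.983), Qrich1 (0.974) and Ecpas (0.971), and Spi1 to Rasa1 (0.989), Hexim1 (0.987) and Mafk (0.986). These are descriptions over 6 libraries that share their scaling and the position of stress replicate 3. Within the 10 genes the same measure was 0.993 for Kit with Gata2, 0.986 for Tfe3 with Lmo2, 0.985 for Tfe3 with Runx1 and -0.960 for Kit with Runx1.

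Markers of other cell types, among them types that express some of the 10 genes, were also detected. Several of the sums below were above the control means of single low members, such as Cebpa (20.7 CPM), Lmo2 (35.5) and Gata1 (37.4). Erythroid markers, for a lineage that uses GATA1, TAL1 and LMO2, summed to 17.7 to 29.3 CPM in the controls and 15.6 to 18.8 CPM after stress, with 0 of 7 tested genes called by edgeR (2 at an unadjusted p under 0.05). Endothelial markers, for cells that also use GATA2, TAL1 and LMO2, summed to 37.8 to 51.3 and 39.4 to 54.3 CPM, with 0 of 8 called (0 unadjusted). Neutrophil markers summed to 46.6 to 141 and 49.1 to 75.9 CPM, with 0 of 6 called (1 unadjusted). The highest of these sums came from control replicate 2, with Mpo at 74.5 CPM beside 4.48 and 10.6 in the other controls. Control replicate 2 also had the highest erythroid sum and the lowest Kit, Gata2, Mitf, Gata1 and Tal1 of the controls. Without it the log2 fold changes were 0.15 for Kit, 0.17 for Gata2, 0.21 for Tal1, 0.074 for Mitf and 0.00087 for Gata1, with none called. Megakaryocyte and platelet markers summed to 360 to 404 and 296 to 522 CPM, highest in stress replicate 3, with 1 of 5 higher (Itga2b) and Gp1bb at 0 in all libraries. Of 3 basophil markers 2 rose, Mcpt8 and Cd200r3, with sums of 396 to 463 and 481 to 581 CPM. Lymphoid markers summed to 53.6 to 68.0 and 83.9 to 103 CPM, with 1 of 4 higher (Il7r), and epidermal and fibroblast markers to 51.9 to 72.7 and 57.6 to 139 CPM, with 0 of 7 called (1 unadjusted). Beside these counts, 4.34% of all genes rose and 1.85% fell. The part of these marker transcripts in the values of the 10 genes was not tested.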

How the data were processed

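Polyadenylated RNA of sorted fetal skin mast cells was sequenced in 6 libraries. The authors deposited raw read counts per gene symbol, 1 table for each library; the values are whole numbers with HTSeq's summary rows at the end. FastQC, STAR 2.4 and HTSeq 0.9.1 appear in the submitters' processing notes, as do GRCm39 and mm10, without saying which build was used for which step. The kit keeps strand, per the labels' protocols. The strand setting used in counting and the annotation release were not given in the sources used here. The 5 rows that name no gene were left out (18.6% to 20.3% of the reads tallied). No member shared a transcript sequence of 75 bases with another gene in GENCODE M21, and exon overlap with genes on the opposite strand was at most 1.93% (Cebpa).

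All genes were filtered with filterByExpr (minimum count 10), scaled with TMM and tested with edgeR 4.0.16 (glmQLFit, glmQLFTest, R 4.3.3), stress against control with no covariate, adjusted by Benjamini-Hochberg at 0.05. SEs were taken from the quasi-likelihood F. The script was also run on simulated data. Alternatives tried were no filter, a stricter filter (10 counts in 3 libraries and a mean of 1 CPM), RLE factors, upper-quartile factors, library totals alone, DESeq2 1.42.0, limma-voom (limma 3.58.1), a replicate block, a macrophage covariate and each library left out. Exon lengths came from GENCODE M21 and promoter windows from RefSeq (GRCm38.p6). The printed coordinates are those of the RefSeq windows, and the build behind the counts is not settled. Protein sequences were not used here. Named were the 10 genes, the called genes of each list (up to 4) and its 2 most abundant, the top markers, relatives of the 10 genes for length-scaled levels, and the 3 most similar genes to Kit, Mitf and Spi1. The members and lists were chosen with earlier results of these data known.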

Additional observations from a re-analysis of the deposited data

How the results depend on the processing

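The counts depended on the fit. Of the 10 genes, 0 passed with all libraries by edgeR, 1 with library totals alone, with DESeq2 and with the replicate block, 2 without a filter, and 0 to 7 with 1 library left out. Over all genes 1035 passed, against 2085 with library totals alone, 1933 without a filter, 1989 with DESeq2, 622 with the replicate block, 652 with the macrophage covariate, 196 to 2647 with 1 library left out, and 171 with stress replicate 3 alone. Of the list genes 21 passed, against 32 without a filter, 35 with DESeq2, 13 with the replicate block, 10 with the covariate, 5 to 43 with 1 library left out (43 without stress replicate 3), and 4 with stress replicate 3 alone. The cause was not tested.

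The range with 1 library left out was 0.15 to 0.30 for Kit, 0.17 to 0.34 for Gata2, 0.14 to 0.32 for Tal1, 0.061 to 0.27 for Mitf, 0.00087 to 0.12 for Gata1, -0.20 to -0.045 for Spi1, -0.31 to -0.13 for Tfe3, -0.61 to -0.22 for Lmo2, -0.49 to -0.22 for Runx1 and -0.62 to -0.39 for Cebpa. For the log2 ratios it was 0.20 to 0.55 for Mitf to Tfe3, -0.24 to -0.15 for Gata1 to Gata2, -0.54 to -0.24 for Spi1 to Gata2 and -0.96 to -0.59 for Cebpa to Gata2. Cebpa passed at -0.58 with library totals, -0.47 without a filter, -0.46 with DESeq2 and -0.47 with the replicate block (adjusted p = 0.0442), and Runx1 passed at -0.32 without a filter. The sign changed, with no call on either side, for Gata1 with library totals (-0.045) and for Spi1 with the covariate (0.041). It also changed with stress replicate 3 alone for Mitf (-0.014), Gata1 (-0.0019), Tfe3 (0.033), Lmo2 (0.076) and Spi1 (0.079). With the covariate, the difference between the edgeR log2 fold changes of the 2 genes was taken in place of the ratio of counts. It was -0.12 for Gata1 to Gata2, -0.095 for Spi1 to Gata2, -0.39 for Cebpa to Gata2 and 0.029 for Mitf to Tfe3.

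Deviations from the group mean correlated at 0.095, -0.019 and 0.068 between same-numbered control and stress libraries. Between differently numbered ones the values ran from -0.21 to 0.14. With 3 libraries per group, centred on their mean, these values cannot decide whether replicate numbers pair the samples. RLE and upper-quartile factors, limma-voom and the stricter filter changed no call among the 10 genes.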
